A study of Mus musculus with 4 samples.

Results

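The class II and class IV histone deacetylases of the mouse, Hdac4, Hdac5, Hdac6, Hdac7, Hdac9, Hdac10 and Hdac11, were taken by gene symbol from a table of 23275 genes, and all 7 were found in it. All 7 were among the 12683 genes that the authors tested, and all 7 had at least 1 FPKM (fragments per kilobase of transcript, relative to all mapped fragments) in both genotypes. RNA came from B220+CD43+ cells, an early B-lineage phenotype, sorted from marrow of C57BL/6 animals aged 8 weeks. The 2 WT (wild-type for Hdac3) libraries came from Hdac3+/+ Mb1cre+/- mice and the 2 Hdac3 KO (deleted) libraries from Hdac3F/- Mb1cre+/- mice, which carry 1 conditional and 1 null allele of Hdac3. Each library pooled the cells of 2 mice. Both genotypes thus carried the Cre recombinase, driven from the Mb1 (Cd79a) locus, which is active in the B lineage, and any sorted cell outside that lineage would keep its conditional allele. All levels are the authors' genotype values, 1 per gene and genotype, so they carry no spread between libraries.

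Histone deacetylases remove acetyl groups from lysines. The class IIa enzymes (Hdac4, Hdac5, Hdac7 and Hdac9) have little deacetylase activity of their own on acetylated histones, bind MEF2 transcription factors through their amino-terminal part, and associate with the NCoR/SMRT corepressors that hold Hdac3. Kinases that phosphorylate them make them dock on 14-3-3 proteins and leave the nucleus. The class IIb enzymes act mainly outside the nucleus, Hdac6 on tubulin and Hdac10 on polyamines, and the class IV enzyme Hdac11 removes long-chain fatty acyl groups from lysines. Hdac7 is known as the class IIa enzyme of developing lymphocytes, where it works with MEF2 factors as a repressor.

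The 250 bases upstream of annotated transcription starts are shown for the 2 members that rose, Hdac7 and Hdac11, beside 2 class IIa relatives that did not pass the test, Hdac5 and Hdac9. Each start coincides with the 5′ end of the gene's entry in the deposited table. Sequences are from RefSeq on GRCm38.p6, 5′ to 3′ along the gene, and capitals mark matches to the motifs searched. Positions are chr15:97844503-97844752 on the minus strand for Hdac7, chr6:91156565-91156664 on the plus strand for Hdac11, chr11:102230173-102230422 on the minus strand for Hdac5 and chr12:34528890-34529139 on the minus strand for Hdac9. For Hdac11 only the first 100 bases are shown, because the rest lies in an annotated exon.
Hdac7: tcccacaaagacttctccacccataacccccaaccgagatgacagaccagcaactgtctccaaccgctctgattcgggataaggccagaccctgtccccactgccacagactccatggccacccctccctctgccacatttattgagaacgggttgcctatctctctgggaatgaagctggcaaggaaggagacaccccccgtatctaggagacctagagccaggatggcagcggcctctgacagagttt
Hdac11: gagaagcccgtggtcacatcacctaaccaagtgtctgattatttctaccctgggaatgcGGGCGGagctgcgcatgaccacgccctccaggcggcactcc
Hdac5: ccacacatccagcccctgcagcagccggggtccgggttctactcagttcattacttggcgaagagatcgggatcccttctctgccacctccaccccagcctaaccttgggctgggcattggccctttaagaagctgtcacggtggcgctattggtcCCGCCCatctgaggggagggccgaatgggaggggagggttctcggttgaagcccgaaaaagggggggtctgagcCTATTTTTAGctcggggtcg
Hdac9: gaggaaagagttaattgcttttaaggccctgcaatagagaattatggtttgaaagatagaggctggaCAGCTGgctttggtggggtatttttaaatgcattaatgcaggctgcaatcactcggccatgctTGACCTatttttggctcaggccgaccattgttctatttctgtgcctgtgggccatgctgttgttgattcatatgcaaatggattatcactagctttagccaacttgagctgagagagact

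Both strands of the windows were searched for MEF2 (by its consensus), EBF1 (by its palindromic consensus), the E2A E-box (CAGCTG), FOXO (GTAAACA), ETS (CCGGAAG), the nuclear receptor half-site (AGGTCA), the GC box (GGGCGG) and CREB/ATF (TGACGTCA). The Hdac7 window held none of these letters. The Hdac11 window held a GC box 186 bases before the start, and, in the part not shown, an E-box 99 bases before it. GC boxes occurred in 32.7% and E-boxes in 13.0% of all 32851 windows of this length. The Hdac5 window held a MEF2 match 11 bases before the start, and such matches occurred in 2.92% of all windows. It also held a GC box on the opposite strand, 89 bases before the start, shown as its reverse complement in capitals. The Hdac9 window held an E-box 178 bases and a nuclear receptor half-site 115 bases before the start. The half-site lies on the opposite strand, shown as its reverse complement in capitals, and its pattern was found in 14.0% of all windows. The GC content was 56.4% for Hdac7, 65.2% for the whole Hdac11 window, 60.8% for Hdac5 and 43.6% for Hdac9, against a median of 52.4% over all windows. At these starts the 2 members that rose had no motif of the search in common. RefSeq listed 3 further starts for Hdac7, whose windows held a GC box, a FOXO match and a nuclear receptor half-site, 1 in each, and 1 further start for Hdac9, whose window held an E-box. Windows were found for 6 of the 7 members, and none for Hdac10.

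In Hdac3 KO cells Hdac7 and Hdac11 transcripts were higher, while the other 5 members did not pass the test. Hdac7 was 49.1 FPKM in WT and 103 FPKM in Hdac3 KO cells, 2.09-fold higher. Hdac11 was 3.33 FPKM in WT and 7.88 FPKM in Hdac3 KO cells, 2.36-fold higher. So 2 of 7 members, or 28.6%, were called higher and 0 lower at the authors' q under 0.05, where 2.81% of all tested genes were called higher, 4.14% lower and 6.95% in either direction. Of the 7, only Hdac9 had an unadjusted p under 0.05 in the lower direction in the authors' Cuffdiff test, and 0 were lower at an adjusted p under 0.05 from a normal p of the test statistic. The median log2 fold change was 0.14 over the 7 members and 0.03 over all tested genes.

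**Figure D1:**
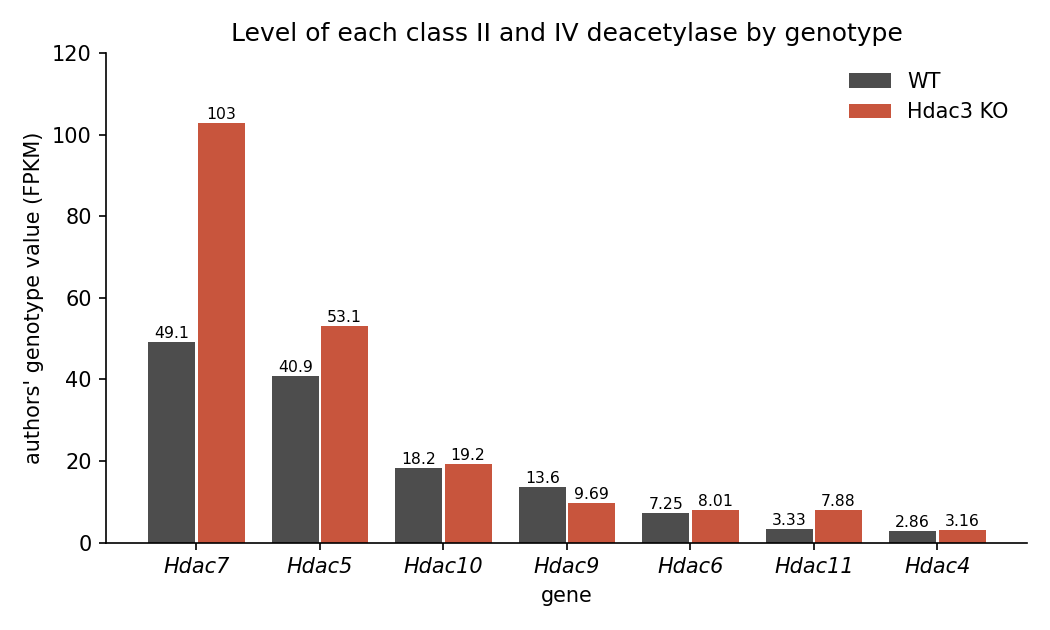
Bars give the authors' genotype value in FPKM for each of the 7 genes, in WT (grey) and Hdac3 KO (red) cells, 1 value per genotype with no error. Hdac7 rose from 49.1 to 103 FPKM and Hdac11 from 3.33 to 7.88 FPKM, and the order of the genes by level was the same in both genotypes.

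The 7 genes kept the same order of levels in both genotypes, from Hdac7 through Hdac5, Hdac10, Hdac9, Hdac6 and Hdac11 to Hdac4. FPKM is a per-length unit, so the levels of different genes can be set side by side. The highest member was 17.2 times the lowest in WT cells and 32.6 times in Hdac3 KO cells. Hdac7 stood 1.20 times above Hdac5 in WT cells and 1.94 times above it in Hdac3 KO cells. Hdac6 stood 2.17 times above Hdac11 in WT cells and 1.02 times above it in Hdac3 KO cells. Without values per library, none of these distances between neighbours can be set against a spread. Among all tested genes, 84.1% lay below Hdac7 in WT cells and 93.3% in Hdac3 KO cells, while 23.3% and 37.5% lay below Hdac11.

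Hdac3 itself, the targeted gene, was 46.8 FPKM in WT and 22.0 FPKM in Hdac3 KO cells. The authors' deposited table gives q = 0.00160 for it. Which exons the remaining fragments came from was not tested. Markers of the B lineage were present in both genotypes, among them Igll1 at 509 and 834 FPKM, and so were markers of other cell types. The 8 plasmacytoid dendritic cell markers summed to 2624 FPKM in WT and 3322 FPKM in Hdac3 KO cells, with Irf8 at 514 and 672 FPKM and none called. The 11 tested myeloid markers summed to 10394 and 2578 FPKM, with 8 lower and Cd14 the 1 higher. The T, NK and innate lymphoid markers with an entry, 9 of 10, summed to 428 and 483 FPKM, with Tcf7 the 1 called higher, though not with the adjusted normal p. Of 3 tested erythroid markers Car2 was lower, at 54.4 and 26.3 FPKM.

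Among the class IIa members, Hdac7 carried the change. Its log2 fold change was 1.07 (approximate SE 0.34), with an approximate 95% interval from 0.40 to 1.74, or 1.32-fold to 3.33-fold. The authors' deposited table gives p = 5e-05 and q = 0.00160, values shared by 396 genes and the smallest that it holds. With a normal p from the authors' test statistic and Benjamini-Hochberg adjustment, the adjusted p was 0.0493, just inside the threshold. Of all tested genes, 98.3% had a log2 fold change below that of Hdac7.

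The Hdac7 entry lies on chromosome 15 from position 97784365 to 97844502 of mm10 and shares this locus with Slc48a1, a haem transporter gene. The position is that of the combined locus, which the table gives for both genes. GENCODE M21 places Hdac7 from 97792664 to 97844502 and Slc48a1 from 97778520 to 97792692, so the combined locus reaches past Hdac7 into Slc48a1. The exons of both genes share 29 bases there, on opposite strands, out of 6755 exonic bases of Hdac7. Slc48a1 was 21.6 FPKM in WT and 25.9 FPKM in Hdac3 KO cells and was not called, with q = 0.897 in the authors' deposited table. Whether the libraries were stranded is not stated in the labels, so reads of that overlap cannot be assigned. Without genes that share a locus, 1 of the members, Hdac11, was called higher.

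Hdac5, the second most abundant member, was 40.9 FPKM in WT and 53.1 FPKM in Hdac3 KO cells. Its log2 fold change of 0.38 had an interval from -0.20 to 0.95, so a rise of up to 1.93-fold lay within it. The authors' deposited table gives p = 0.059 and q = 0.321. Its entry spans chromosome 11 from 102195747 to 102230172.

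Hdac4, the least abundant member, was 2.86 FPKM in WT and 3.16 FPKM in Hdac3 KO cells. Its log2 fold change was 0.14, with an interval from -0.57 to 0.85, and q = 0.866 in the authors' deposited table. The entry spans chromosome 1 from 91932749 to 92148393 and ends 31948 bases short of the RefSeq start. It holds the whole coding sequence of the longest coding transcript, but only 47.3% of the exonic bases of the GENCODE M21 coding transcripts.

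Hdac9 was the 1 member with a negative fold change. It was 13.6 FPKM in WT and 9.69 FPKM in Hdac3 KO cells, 1.40-fold lower, which did not pass the test. The log2 fold change was -0.49, with an unadjusted interval from -0.97 to -0.01. The authors' deposited table gives p = 0.0129 and q = 0.126.

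The Hdac9 entry covers only part of the gene. It runs on chromosome 12 from 34371497 to 34528889, or 157 kb, where GENCODE M21 places the gene from 34047580 to 34917095, or 870 kb. Of the 25 exons of the longest coding transcript, 11 lie in the entry, with 53.9% of the coding bases, and the other 14 lie beyond its 3′ end, with 46.1%. In class IIa enzymes the MEF2-binding part is amino-terminal and the deacetylase domain carboxy-terminal, and short Hdac9 forms without the deacetylase domain are known. The Hdac9 level is therefore that of transcripts modelled in this span, and a change in the exons outside it was not analysed here.

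**Figure D2:**
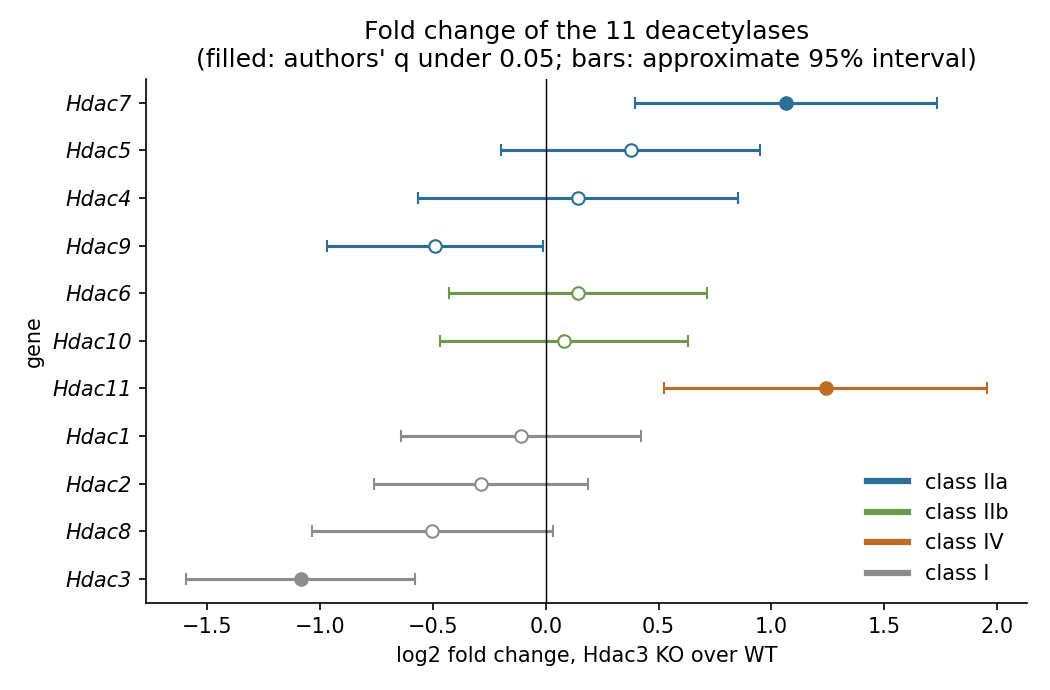
Points give the log2 fold change, Hdac3 KO over WT, of the 7 members and the 4 class I deacetylases, and bars an approximate, unadjusted 95% interval from the authors' test statistic. The intervals of Hdac7 and Hdac11 lie above 0 and that of Hdac3 lies below it. That of Hdac9 ends at -0.01, and its q of 0.126 in the authors' deposited table did not pass.

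Both class IIb members lay near 0. Hdac6, the tubulin deacetylase, was 7.25 FPKM in WT and 8.01 FPKM in Hdac3 KO cells, a log2 fold change of 0.14 with an interval from -0.43 to 0.72. Hdac10, the polyamine deacetylase, was 18.2 FPKM in WT and 19.2 FPKM in Hdac3 KO cells, a log2 fold change of 0.08 with an interval from -0.47 to 0.63. The authors' deposited table gives q = 0.831 for Hdac6 and q = 0.919 for Hdac10. These intervals leave room for a rise of up to 1.64-fold for Hdac6 and 1.55-fold for Hdac10. The Hdac6 entry spans chromosome X from 7930122 to 7947889 and the Hdac10 entry chromosome 15 from 89123303 to 89128700, and both hold all exons of the longest coding transcript.

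Hdac11, the only class IV enzyme, had the largest fold change of the 7 members from a low level. Its log2 fold change was 1.24 (approximate SE 0.37), with an interval from 0.53 to 1.96, or 1.44-fold to 3.88-fold. The authors' deposited table gives p = 5e-05 and q = 0.00160 for Hdac11, and the normal p of the test statistic gave an adjusted p of 0.0226. Adding 1 FPKM to both values lowered its log2 fold change to 1.04. The rise of Hdac11 was 4.55 FPKM where that of Hdac7 was 53.7 FPKM. The Hdac11 entry spans chromosome 6 from 91156815 to 91174683 and overlaps no other entry of the table.

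**Figure D3:**
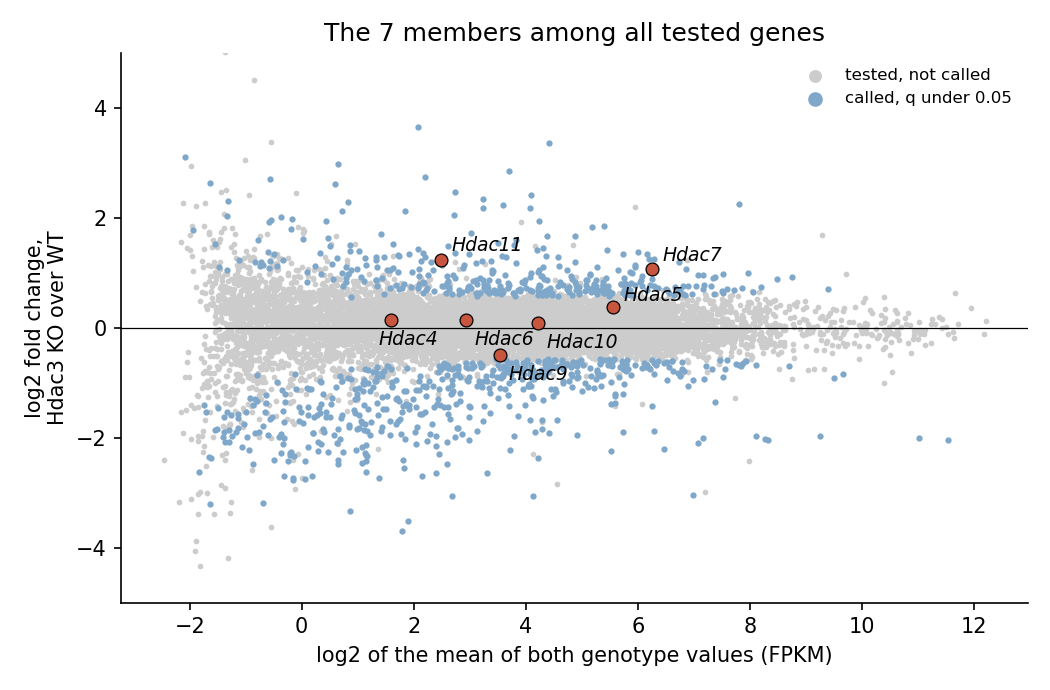
Each point is a gene tested by the authors, placed by the log2 of the mean of its genotype values in FPKM and by its log2 fold change, Hdac3 KO over WT; 12643 genes with values above 0 in both genotypes are drawn, 8 of them outside the axis. Hdac11 at 1.24 and Hdac7 at 1.07 lie among the called genes (blue), and the other 5 members (red, named) lie within the cloud of genes not called (grey).

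Class IIa made up a larger part of the summed deacetylase level in Hdac3 KO cells, and class I a smaller part. The 4 class IIa genes summed to 107 FPKM in WT and 169 FPKM in Hdac3 KO cells, 1.58-fold higher. The share of Hdac7 in that sum was 46.1% in WT and 60.9% in Hdac3 KO cells, while that of Hdac9 was 12.8% and 5.74%. The class IIb sum was 25.4 and 27.2 FPKM. Class I, the group of Hdac1, Hdac2, Hdac3 and Hdac8, summed to 254 and 201 FPKM, and 207 and 179 FPKM without Hdac3.

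All 11 deacetylases together summed to 389 FPKM in WT and 405 FPKM in Hdac3 KO cells. The 7 class II and IV genes made up 34.8% of that sum in WT and 50.3% in Hdac3 KO cells. Without Hdac7 the other 6 summed to 86.2 and 101 FPKM, 1.17-fold higher. Hdac7 and Hdac3 had nearly equal levels in WT cells, at a ratio of 1.05, and Hdac7 was 4.67 times Hdac3 in Hdac3 KO cells. These sums are of 1 value per genotype and were not tested.

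**Figure D4:**
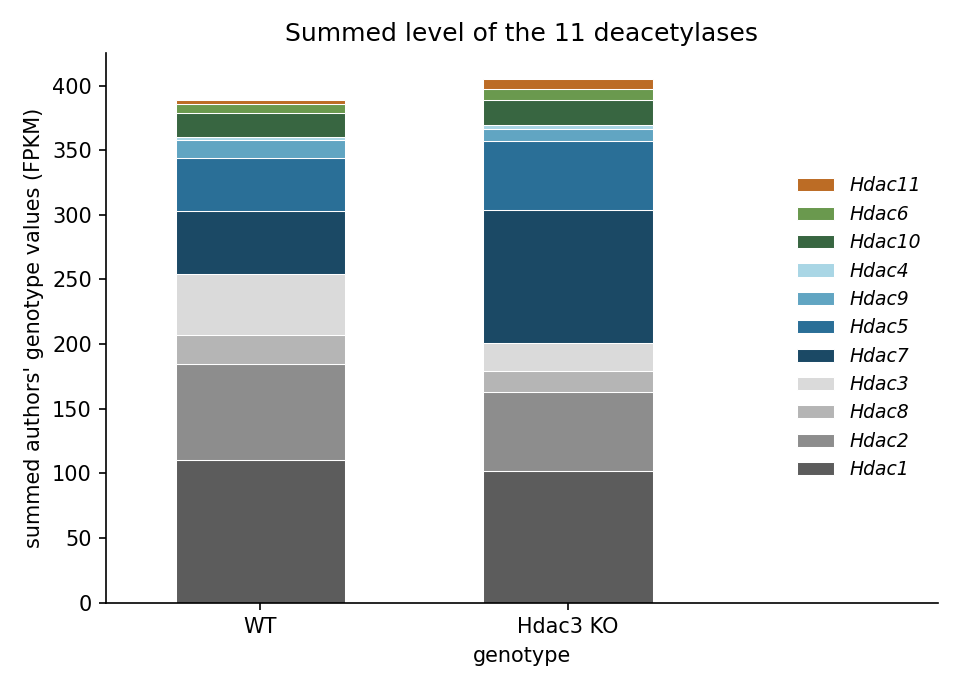
Stacked bars give the summed authors' genotype values in FPKM of the 11 deacetylases in each genotype, with class I in greys, class IIa in blues, class IIb in greens and Hdac11 in brown. The total was 389 FPKM in WT and 405 FPKM in Hdac3 KO cells, and class IIa took 107 and 169 FPKM of it.

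Some B-lineage genes were higher in the same samples as Hdac7 and Hdac11. All 9 B-lineage markers examined had positive fold changes, from 1.09-fold to 1.64-fold, where 6779 of all 12683 tested genes had one. Of the 9, 3 were called higher, the commitment factor Pax5 and the surrogate light chain genes Vpreb1 and Igll1. That is 33.3%, where 2.81% of all tested genes were called higher. With the adjusted normal p, 0 of the 9 were called. Relative to each of the 9 markers in turn, Hdac7 was 1.28-fold to 1.92-fold higher and Hdac11 1.44-fold to 2.17-fold higher in Hdac3 KO cells. The lower ends are relative to Igll1, with a fold change of 1.64. The upper ends are relative to Ptprc, the gene of the sort marker B220, with a fold change of 1.09. The 8 plasmacytoid dendritic cell markers also had positive fold changes, of at most 0.59 on the log2 scale. In a sorted bulk population fewer cells of a type and less RNA per cell cannot be told apart, and the part of the cell mixture in the rise of Hdac7 and Hdac11 was not tested.

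Among the partners that bind class IIa enzymes, the NCoR/SMRT complex had 1 of 5 genes called, and MEF2 factors had 0 of 4. For the complex that is 20%, where 6.95% of all tested genes were called in either direction. Tbl1x, a WD-repeat subunit of the complex, rose 1.54-fold from 30.4 to 46.7 FPKM, and all 5 genes of the complex had positive fold changes, with a median log2 fold change of 0.29. Tbl1x was not called with the normal p, at an adjusted p of 0.240. The MEF2 factors were led by Mef2d at 74.8 FPKM in WT and 85.2 FPKM in Hdac3 KO cells and Mef2c at 46.1 and 47.9 FPKM. Their median was 0.12, and the interval of Mef2c ran from -0.50 to 0.61. In the authors' Cuffdiff test 0 of the 4 MEF2 factors passed even at an unadjusted p under 0.05, and 0 passed with the adjusted normal p.

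Repressors known to bind class IIa enzymes had 8 tested genes of 10, with 0 called and a median of -0.08. The highest were the corepressor Ctbp1 at 121 FPKM in WT and 99.7 FPKM in Hdac3 KO cells and the transcription factor Runx2 at 79.7 and 108 FPKM. In the authors' Cuffdiff test 1 of these 8, Runx3, passed at an unadjusted p under 0.05, and 0 passed with the adjusted normal p.

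Kinases that phosphorylate class IIa enzymes had 2 higher and 0 lower genes of 14 tested, with a median of 0.25. The share called was 14.3%, against 6.95% of all tested genes in either direction. Prkd2, protein kinase D2, rose 2.53-fold from 30.4 to 76.9 FPKM, an interval of 0.78 to 1.90 on the log2 scale. Camk2b, a calcium/calmodulin-dependent kinase, rose 1.87-fold from 6.34 to 11.9 FPKM, which the normal p did not call, at an adjusted p of 0.0644. Prkd3, another protein kinase D, was 28.6 and 28.1 FPKM and was not called. The 14-3-3 adaptors (Ywha genes) that retain phosphorylated class IIa enzymes in the cytoplasm had 0 of 7 genes called and a median of -0.09, with Ywhae at 366 and 344 FPKM and Ywhaz at 235 and 240 FPKM. In the authors' Cuffdiff test 0 of the 7 passed at an unadjusted p under 0.05, and 0 with the adjusted normal p.

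Genes known as MEF2 targets had 3 lower and 0 higher genes of 6 tested, with a median of -0.55. That is 50% called, where 4.14% of all tested genes were called lower and 6.95% in either direction. Klf4 fell 2.71-fold from 7.53 to 2.78 FPKM, Jun 2.59-fold from 69.8 to 27.0 FPKM and Egr1 1.95-fold from 11.8 to 6.07 FPKM. All of these are also immediate early or myeloid-expressed transcription factors, and 8 of 11 tested myeloid markers were lower in the same samples, from a summed 10394 to 2578 FPKM. Their part in the lower levels was not tested. Nr4a1, a MEF2 target in T cells chosen here after its values were seen, was 6.11 and 6.20 FPKM and was not called.

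**Figure D5:**
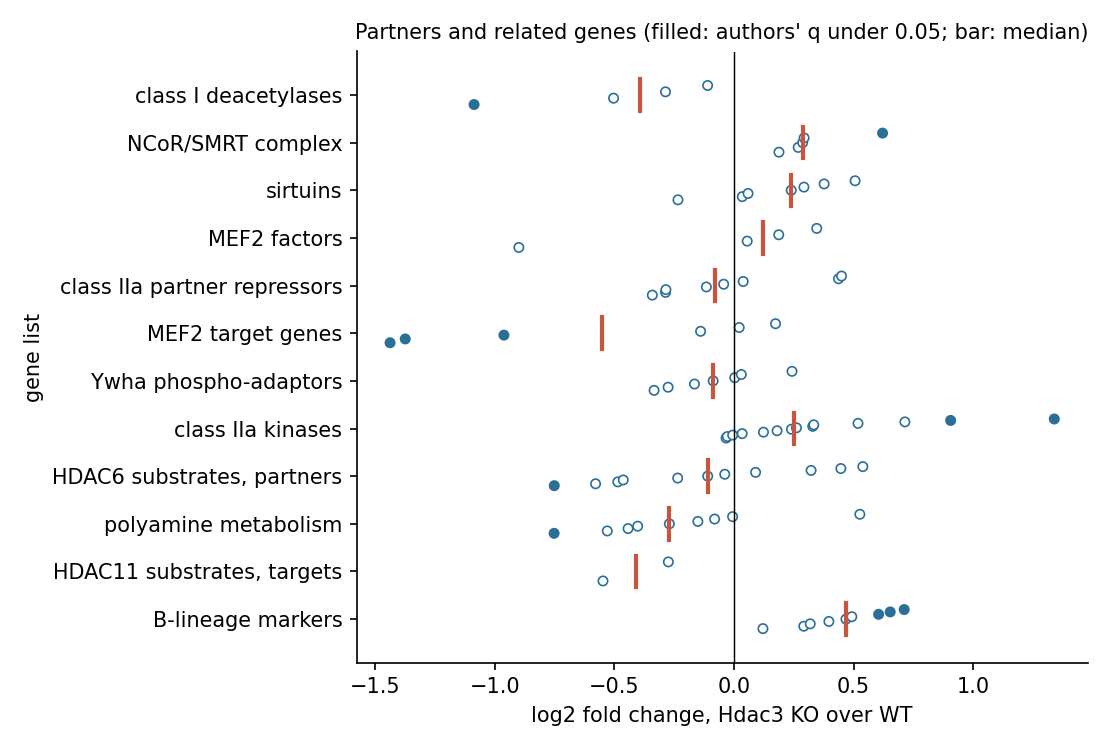
Each point is a tested gene of the list on the vertical axis, placed by its log2 fold change, Hdac3 KO over WT; filled points passed the authors' q under 0.05 and red bars are list medians. Prkd2 at 1.34 is the rightmost point among the kinases, 3 of 6 MEF2 targets are filled on the left, and no gene of the MEF2 factors, partner repressors, Ywha phospho-adaptors (14-3-3 proteins) or sirtuins is filled.

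Substrates and partners of Hdac6 had 1 lower and 0 higher genes of 11 tested, with a median of -0.11. That is 9.09% called, where 6.95% of all tested genes were called in either direction. Tuba1b, an alpha-tubulin, fell 1.68-fold from 202 to 120 FPKM, with q = 0.00414 in the authors' deposited table. With the normal p its adjusted p was 0.0845. Alpha-tubulin genes are close in sequence, and how reads were divided among them was not tested. Atat1, the acetyltransferase that opposes Hdac6 on tubulin and was chosen after its values were seen, was 5.60 and 8.13 FPKM and was not called.

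Polyamine metabolism, the pathway of the Hdac10 substrates, had 1 lower and 0 higher genes of 9 tested, with a median of -0.27. That is 11.1% called, against 6.95% of all tested genes in either direction. Odc1, ornithine decarboxylase, the first enzyme of polyamine synthesis, fell 1.68-fold from 66.7 to 39.6 FPKM. Of the genes linked to Hdac11, Shmt2, a mitochondrial serine hydroxymethyltransferase whose acylation Hdac11 reverses, was 53.8 and 44.5 FPKM. The replication licensing factor Cdt1 was 43.2 and 29.6 FPKM, and neither passed the test, with q = 0.528 and q = 0.0626 in the authors' deposited table. Il10, at 0.0317 and 0.0379 FPKM, was not tested by the authors.

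The genes closest to Hdac7 in level were found by the distance on the log2 scale over the 2 genotype values. They were Snora33, a small nucleolar RNA gene, at 49.2 and 98.8 FPKM, Lef1, a transcription factor of early lymphocytes, at 46.6 and 110 FPKM, and Gimap9 at 53.4 and 99.5 FPKM. Lef1 and Gimap9 were called higher and Snora33 was not, with q = 0.528 in the authors' deposited table. Those closest to Hdac11 were Gm15987 at 3.52 and 8.02 FPKM, Sertad4 at 3.54 and 7.80 FPKM and Parvb at 3.20 and 9.03 FPKM, of which Sertad4 and Parvb were called higher. The choice used the same values as the fold changes, so a rise close to that of Hdac7 or Hdac11 followed from it.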

How the data were processed

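RNA from 4 libraries of sorted B220+CD43+ bone marrow cells, 2 per genotype, was compared between genotypes as labelled. The submitters' processing notes name Trimmomatic 0.32, TopHat2 2.0.11 and Cuffdiff 2.1.1 on the mm10 build. Options, gene annotation and library scaling are not given in the sources here. Per the file headers, the deposited FPKM values are 1 per gene and genotype. The authors' deposited table also holds Cuffdiff's test statistic (a score), its p-value and its q-value. Values per library were not analysed here, so their spread and depth are unknown.

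Fold changes are ratios of these FPKM values, without a pseudocount. An approximate standard error was the log2 fold change divided by the authors' test statistic, and 95% intervals used a normal quantile, unadjusted for the number of genes. A gene was called at the authors' q under 0.05. The members and lists were chosen with earlier results of these data known. Named genes outside the 7 members followed a rule: of each list up to 4 called genes by smallest q, or with none called up to 2 of the highest level, with Hdac3, called or overlapping locus neighbours and the 3 nearest genes to each called member. Other genes were singled out after their values were seen. Gene models came from GENCODE M21 and promoter windows from RefSeq, both on GRCm38, the assembly of mm10. A planned comparison of protein sequences was not run. Fold changes, calls and the Benjamini-Hochberg adjustment were checked on simulated data. Alternatives were other q thresholds, minimum fold changes, adding 1 FPKM, requiring 1 FPKM, centring on the median gene and a normal p of the test statistic. The tools were scipy 1.17.1, numpy 2.4.6, matplotlib 3.10.9 and pandas 2.3.3 under Python 3.11.15.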

Additional observations from a re-analysis of the deposited data

How the results depend on the processing

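The log2 fold changes of all 7 members kept their sign with a pseudocount of 1 FPKM and with centring on the median gene. Neither setting could change a sign here. The same amount added to both values leaves the sign as it is. The centring shift of 0.02 was smaller than the smallest log2 fold change of a member, 0.08 for Hdac10. Neither of these settings recomputes the authors' q, so they do not test the calls. With a normal p of the test statistic all 7 members kept their side of the threshold. The count of 2 members called higher was the same at q thresholds of 0.01 and 0.1 and with at least 1.5-fold or 2-fold. This followed from the reported values. Hdac7 and Hdac11 had the authors' q of 0.00160 and folds of 2.09 and 2.36, and the next smallest q of a member was 0.126, for Hdac9. Requiring at least 1 FPKM in both genotypes could not change this count, because all 7 members reach that level. The count was 1 without genes that share a locus, an alternative chosen after seeing the data, which removes Hdac7. Of all tested genes, 356 were called higher and 525 lower. These counts were 189 and 345 at a q under 0.01, 130 and 296 with at least 2-fold, and 136 and 335 with the normal p, the last also chosen after seeing the data for this count. Adding 1 FPKM to both values put class IV, that is Hdac11, at 1.04 rather than 1.24 on the log2 scale, and the median of the erythroid markers was -0.33 rather than -1.05. Centring moved all values by 0.02. Leaving out replicates was not run, because the values used combine both libraries of a genotype. No paired analysis was possible because the values carry no replicate numbers. Depth is unknown, so the precision of Hdac4 and Hdac11, the members with the lowest WT levels, rests on the authors' model alone.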

Other observations

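Sirtuins, the NAD-dependent class III deacetylases, had 0 of 7 genes called in the authors' Cuffdiff test, 0 at an unadjusted p under 0.05 and 0 with the adjusted normal p. The highest were Sirt7, a nucleolar member, at 51.8 FPKM in WT and 53.1 FPKM in Hdac3 KO cells, and Sirt2, a cytoplasmic tubulin deacetylase, at 27.2 and 32.1 FPKM. Their median log2 fold change was 0.24, where it was 0.03 over all tested genes, and 6 of 7 fold changes were positive.

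Of 15 genes that overlap the 7 members or lie next to them in the table, 9 were tested and 1 was called. This was BC030867, 18709 bases beyond Hdac5, which fell from 7.25 to 4.41 FPKM, with q = 0.026 in the authors' deposited table. On either side of Hdac11, Nup210 was 83.1 and 86.8 FPKM and was not called, and Fbln2 was not tested.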
